A study of Homo sapiens with 15 samples.

Results

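The Notch receptors, ligands and target genes were examined in MCF-10A cells in which p63 was knocked down or 1 of 2 p63 isoforms was overexpressed. p63 belongs to the p53 family of transcription factors and is found in basal epithelial cells. The 10 genes, NOTCH1, NOTCH2, NOTCH3, JAG1, JAG2, DLL1, HES1, HEY1, LFNG and NUMB, were chosen by symbol, and each was represented by its probe set with the highest mean over all arrays. Of these, 8 had a probe set annotated to their symbol alone, among 11963 such genes on the array. DLL1 had no probe set listed under its symbol in the annotation used, and 2 probe sets listed under NUMB were shared with a second locus, so neither gene is given a value. All arrays held total RNA of MCF-10A, an established, immortalized and non-tumorigenic line of human mammary epithelial cells, taken 48 hours after infection. The labels name retroviral or adenoviral infection without saying which group received which. In the knockdown arm, a short hairpin RNA (shRNA) vector control, the hairpin shDBD, aimed at the DNA-binding domain and thus at every p63 isoform, and the hairpin shTA, aimed at isoforms with the transactivating domain, had 2 arrays each. In the overexpression arm, a vector control, ΔNp63α, which lacks that domain, and TAp63γ, which has it, had 3 arrays each. Replicates are labelled biological, without word of separate infections. Each p-value thus reflects only the spread within groups, estimated over both arms together, and that spread may be technical.

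Notch is a signalling route between touching cells. A ligand of the Jagged or Delta family on one cell binds a Notch receptor on its neighbour, ADAM proteases and then the γ-secretase complex cut the receptor, and the freed intracellular part joins the DNA-binding protein RBPJ and a Mastermind coactivator to switch on genes such as HES1 and HEY1, which encode transcriptional repressors. LFNG adds sugars to the receptor and so alters which ligand it answers, and NUMB antagonizes the receptor. In stratified and mammary epithelia the route is known for its part in the choice between basal and differentiated fates, a choice in which p63 also acts.

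The sequences just upstream of the start sites of HES1, JAG1 and JAG2 are shown because HES1 is a classic direct target of RBPJ, and because the 2 ligands had the largest differences among the measured members on the probe sets chosen by the rule. They are the 250 bases before the start, read on the gene's strand, from RefSeq on GRCh38.p14. HES1 lies at chr3:194135898-194136147 on the plus strand, and capitals mark TGGGAA, the core of the RBPJ motif. JAG1 (chr20:10674000-10674249) and JAG2 (chr14:105168777-105169026) lie on the minus strand, and capitals mark CATG, the central letters of one form of the p53-family half-site.
HES1: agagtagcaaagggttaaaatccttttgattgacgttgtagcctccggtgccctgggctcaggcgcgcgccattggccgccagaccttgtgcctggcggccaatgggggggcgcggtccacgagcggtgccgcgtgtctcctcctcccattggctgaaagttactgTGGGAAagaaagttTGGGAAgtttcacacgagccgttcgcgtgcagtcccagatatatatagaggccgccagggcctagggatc
JAG1: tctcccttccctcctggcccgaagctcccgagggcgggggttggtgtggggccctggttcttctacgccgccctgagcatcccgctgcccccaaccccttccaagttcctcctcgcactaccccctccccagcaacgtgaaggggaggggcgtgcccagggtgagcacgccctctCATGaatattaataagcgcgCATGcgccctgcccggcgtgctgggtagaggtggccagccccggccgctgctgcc
JAG2: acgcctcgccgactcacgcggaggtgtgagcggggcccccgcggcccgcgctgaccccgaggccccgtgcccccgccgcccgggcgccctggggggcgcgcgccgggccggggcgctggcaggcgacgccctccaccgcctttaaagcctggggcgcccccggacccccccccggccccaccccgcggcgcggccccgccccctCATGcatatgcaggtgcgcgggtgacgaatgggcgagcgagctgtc
Upstream sequence was found for 8 of the 10 genes (all but DLL1 and HEY1), and both strands were searched. HES1 held 2 copies of TGGGAA, starting 84 and 70 bases before the start site, and the other 7 had none, against 21.1% of 27305 upstream sequences of the same length. HES1 also held 3 copies of CACNAG, a box that HES proteins bind, which 32.0% of the sequences held. CATG occurred 2 times in JAG1 and 1 time each in JAG2, NOTCH3 and NUMB, with a share of 48.2% among all sequences. None of the marked TGGGAA or CATG letters overlap another searched motif. These matches describe letters and not occupied sites.

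The values are log2 expression values made with RMA, so a difference of 1 is a doubling, and they are compared within an arm. Differences are given as log2 change ± SE with Benjamini-Hochberg adjusted p-values over all 11963 genes from limma, called at 0.05. The epithelial identity of the cells was checked with a list of 10 measured basal and general epithelial genes, whose mean level lay between 11.7 and 12.4 on every array, against 5.80 to 6.14 for 8 fibroblast genes, 5.76 to 6.92 for 6 immune genes and 5.25 to 6.07 for 8 endothelial and adipocyte genes. The mean of 10 luminal genes lay between 6.11 and 6.86. With shDBD, 4 of the 10 basal and general epithelial genes were lower and 1 higher, 2 of the luminal, 2 of the immune and 2 of the endothelial and adipocyte genes were higher, and 1 fibroblast gene was lower. Of all genes, 11.1% were higher and 10.2% lower with shDBD. With shTA, 2 of the 10 basal and general epithelial genes were lower, when 0.853% of all genes were. With ΔNp63α, 4 of these 10 genes were higher and 4 lower, when 12.3% of all genes were higher and 16.6% lower. With TAp63γ, 6 of the 10 basal and general epithelial genes were higher and 3 lower, when 20.5% of all genes were higher and 22.8% lower. Lists of cell states moved with the treatments. The mean level of 12 mitosis genes was 9.50 with the shRNA vector, 7.62 with shDBD and 9.58 with shTA, and 9.36, 9.71 and 8.42 with vector, ΔNp63α and TAp63γ in the overexpression arm. It fell in 12 of 12 genes with shDBD and in 11 of 12 with TAp63γ, and 6 of 12 rose with ΔNp63α. The mean level of 11 interferon response genes was 6.26 with the overexpression vector, 10.6 with ΔNp63α and 8.87 with TAp63γ, and 6.87 with the shRNA vector and 7.74 with shDBD. Of those 11 genes, all rose with either isoform and 7 with shDBD. The 3′ minus 5′ difference of actin, a measure of RNA integrity, was -0.094 to -0.080 with the shRNA vector, 0.048 to 0.085 with shDBD and 0.0028 to 0.20 with shTA, and it ranged from 0.0054 to 0.24 in the overexpression arm. The part of these in the Notch results was not tested. The transcript of the targeted and introduced gene was not analysed here, so it could not serve as a check of the labels.

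Notch genes were called with 3 of the 4 treatments. HES1 was called with all 3 and NOTCH1 with both isoforms, while JAG1, JAG2, NOTCH2 and HEY1 were each called with a single treatment. With shDBD, the ligand JAG1 and the target HES1 fell, and 0 of 8 rose, when 21.3% of all genes were called (11.1% higher and 10.2% lower). With shTA, 0 of 8 were called by limma, when 2.29% of all genes were (1.44% higher and 0.853% lower), and 0 of 8 had an unadjusted p under 0.05. With ΔNp63α, HES1 rose and NOTCH1 fell, 2 of 8 with 28.9% of all genes called (12.3% higher and 16.6% lower). With TAp63γ, JAG2, HES1 and NOTCH2 rose and NOTCH1 and HEY1 fell, 5 of 8 with 43.4% of all genes called (20.5% higher and 22.8% lower). The direct comparisons called 3 of 8 between the hairpins (18.4% of all genes, 9.14% higher and 9.23% lower), where JAG1, HES1 and NOTCH2 were lower with shDBD, and 3 of 8 between the isoforms (39.8% of all genes, 19.2% higher and 20.6% lower), where NOTCH1 and HEY1 were higher and JAG2 lower with ΔNp63α than with TAp63γ. The median change of the 8 genes was -0.13 with shDBD, 0.03 with shTA, 0.04 with ΔNp63α and 0.13 with TAp63γ, where the medians of all genes were 0.00, -0.01, -0.01 and -0.02. With 8 genes these counts are a description, and nothing particular to the family is read from them beside the shares of all genes.

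**Figure D1:**
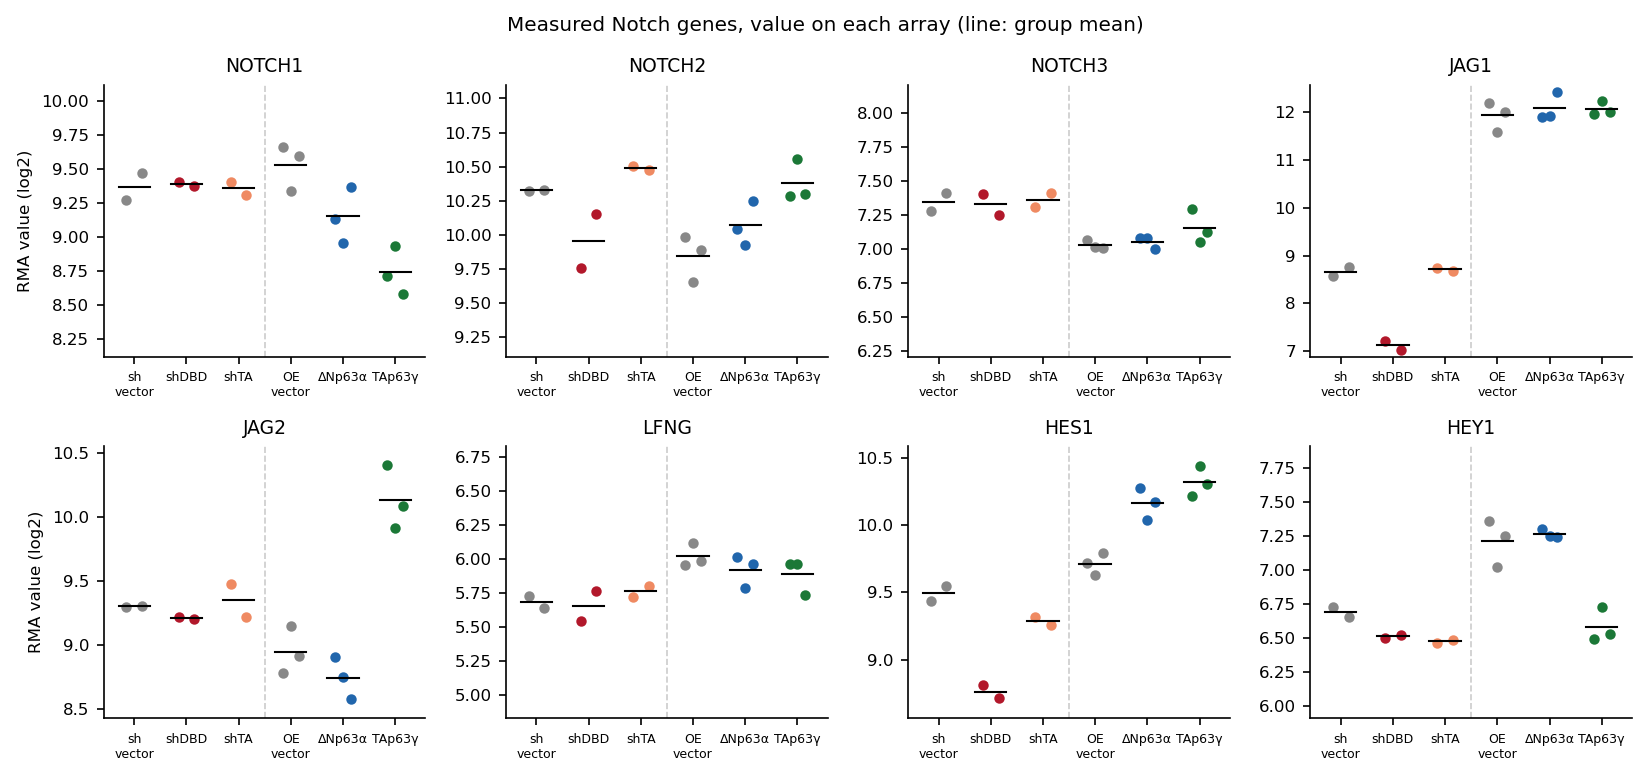
RMA value (log2, vertical axis, scaled to each gene) of the 8 measured Notch genes on each of the 15 arrays, by group (horizontal axis); points are arrays, lines are group means and the dashed line separates the arms. JAG1 with shDBD and JAG2 with TAp63γ lie apart from the other groups of their arms, and JAG1 is near 12 in the whole overexpression arm.

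JAG1, a Jagged ligand, was the member that changed most in the knockdown arm on the probe sets chosen by the rule. Its values were 8.57 and 8.75 with the vector, 7.22 and 7.03 with shDBD and 8.75 and 8.68 with shTA. Both shDBD arrays lay more than a whole log2 unit below every other array of the arm, and the shTA arrays overlapped the vector. JAG1 fell by 1.53 ± 0.19 with shDBD, a 2.90-fold decrease (adjusted p = 2.42e-05), and was 3.01-fold lower with shDBD than with shTA (-1.59 ± 0.19, adjusted p = 2.28e-05). With shTA the difference was 0.06, with a 95% interval from -0.35 to 0.46. In bulk RNA, fewer cells expressing a gene and less of its RNA per cell cannot be told apart.

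No difference of JAG1 was called with either isoform. The values were 12.20, 11.59 and 12.01 with the vector, 11.90, 11.92 and 12.43 with ΔNp63α and 11.96, 12.24 and 12.01 with TAp63γ. All 3 groups overlapped, the difference being 0.15 (interval -0.18 to 0.48) with ΔNp63α and 0.14 (interval -0.19 to 0.46) with TAp63γ. The vector level itself differed between the arms, at 8.66 ± 0.13 (SD, n = 2) with the shRNA vector and 11.9 ± 0.31 (SD, n = 3) with the overexpression vector. That gap of 3.27 ranked 19 of 11963 genes by size. It crosses arms that appear to have been normalized separately and is not tested.

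The other probe sets of JAG1 were set beside the chosen one. In the knockdown arm, 216268_s_at fell by 1.77 and 209098_s_at by 1.23 with shDBD, both called, while 209097_s_at, which stayed between 6.18 and 6.73 on all arrays, differed by -0.02. With TAp63γ, 209098_s_at was higher by 0.48 and called (adjusted p = 0.00975), whereas the chosen probe set and 216268_s_at each differed by 0.14 and were not called.

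**Figure D2:**
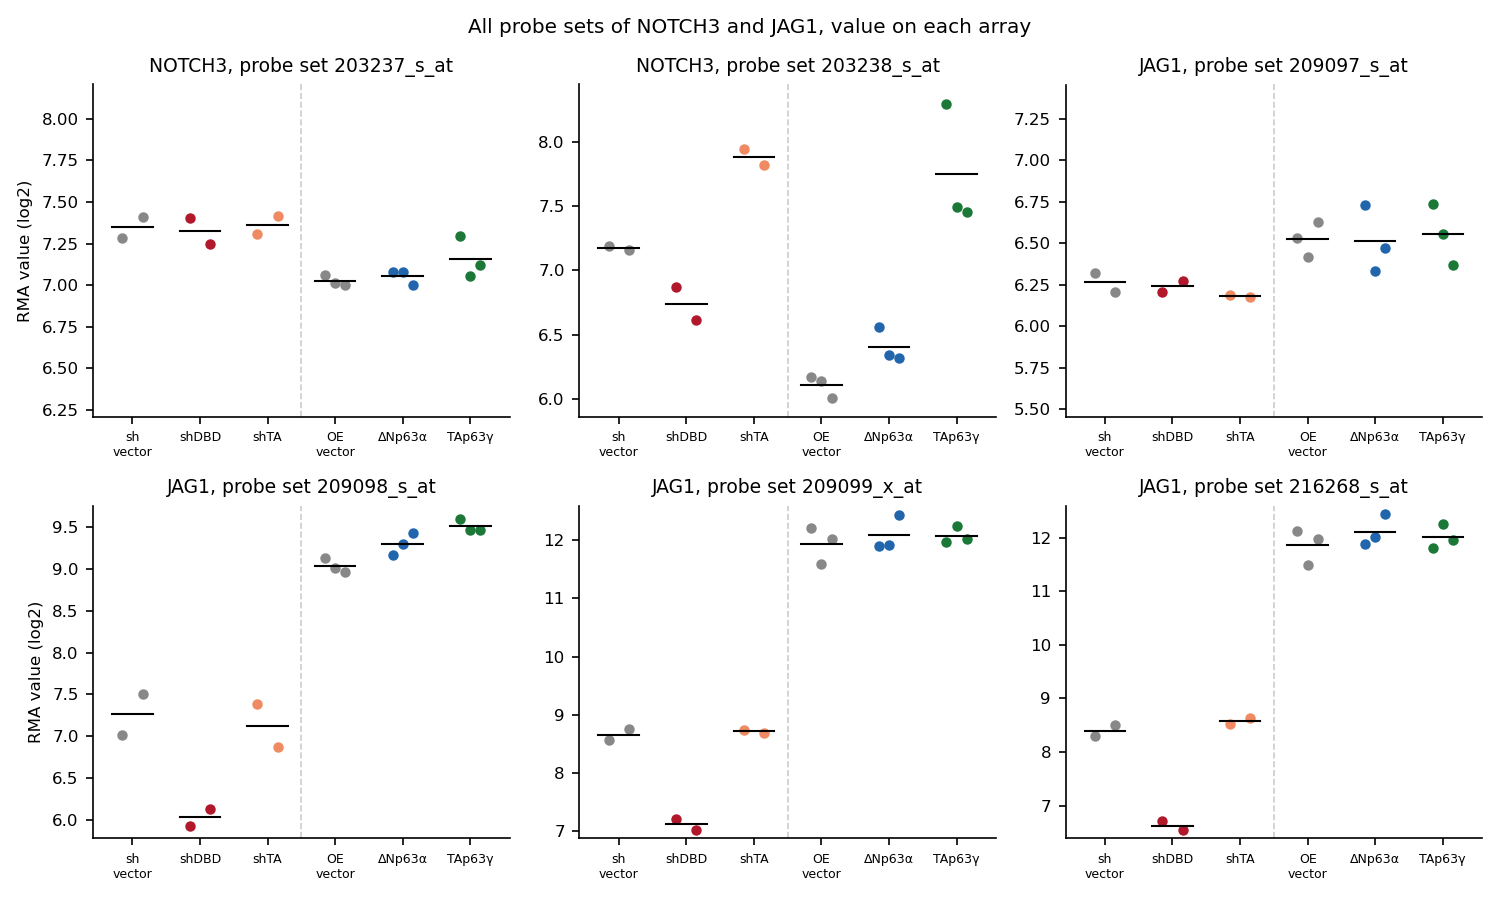
RMA value (log2, vertical axis, scaled to each panel) on each array, by group, for both probe sets of NOTCH3 and the 4 of JAG1; points are arrays and lines group means. One NOTCH3 probe set is flat while the other is highest with shTA and TAp63γ in its arm, and 3 of the 4 JAG1 probe sets are lower with shDBD.

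JAG2, the second Jagged ligand, showed the opposite layout: no detected difference in the knockdown arm and a rise with TAp63γ. It had 8.78, 9.14 and 8.91 with the overexpression vector, 8.90, 8.75 and 8.58 with ΔNp63α and 10.40, 9.91 and 10.08 with TAp63γ. Every TAp63γ array lay above every other array of the arm, and ΔNp63α overlapped the vector. JAG2 rose by 1.19 ± 0.13 with TAp63γ (2.27-fold, adjusted p = 1.50e-06) and was 2.62-fold lower with ΔNp63α than with TAp63γ (-1.39 ± 0.13, adjusted p = 5.26e-07). With ΔNp63α it differed by -0.20 from the vector (interval -0.47 to 0.07). Its second probe set gave 1.24 for TAp63γ and -1.52 between the isoforms, both called. In the knockdown arm JAG2 ranged from 9.20 to 9.47 over all 6 arrays, and the difference was -0.09 with shDBD (interval -0.42 to 0.24) and 0.05 with shTA (interval -0.29 to 0.38).

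NOTCH1, the receptor prominent in the suprabasal layers of stratified epithelia, fell with TAp63γ. Its values were 9.66, 9.34 and 9.60 with the vector, 9.13, 8.96 and 9.37 with ΔNp63α and 8.72, 8.94 and 8.58 with TAp63γ. The groups stepped down in that order, with TAp63γ below all other arrays of the arm and ΔNp63α overlapping the vector. The fall was 0.79 ± 0.12 with TAp63γ (-0.79, 1.73-fold, adjusted p = 4.78e-05) and 0.38 ± 0.12 with ΔNp63α (-0.38, 1.30-fold, adjusted p = 0.0248). The ΔNp63α call was lost under 8 of 23 alternatives, its adjusted p ranging from 0.00441 to 0.123 over all of them, among them leaving out vector replicate 1 (0.0972) or 3 (0.086) or ΔNp63α replicate 1 (0.0601) or 2 (0.119). Between the isoforms NOTCH1 was higher with ΔNp63α by 0.41 ± 0.12 (adjusted p = 0.0116), which became 0.0527 without ΔNp63α replicate 3 and 0.0666 without TAp63γ replicate 3. In the knockdown arm NOTCH1 lay between 9.27 and 9.47 on all arrays, and it differed by 0.02 with shDBD (interval -0.29 to 0.33) and by -0.01 with shTA (interval -0.32 to 0.30).

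NOTCH2, a receptor of broad expression, moved the other way with TAp63γ. It read 9.98, 9.65 and 9.89 with the vector, 10.04, 9.92 and 10.25 with ΔNp63α and 10.28, 10.56 and 10.30 with TAp63γ. TAp63γ lay above the vector without overlap, and NOTCH2 rose by 0.54 ± 0.12 (1.45-fold, adjusted p = 0.00146). The ΔNp63α arrays lay between, at 0.23 ± 0.12 above the vector (adjusted p = 0.176) and -0.31 ± 0.12 from TAp63γ (adjusted p = 0.0509, from 0.016 to 0.198 over the alternatives). In the knockdown arm the values were 10.32 and 10.33 with the vector, 9.75 and 10.15 with shDBD and 10.51 and 10.48 with shTA. The 2 shDBD arrays were the lowest and differed from each other more than the other pairs did. NOTCH2 was lower with shDBD than with shTA (-0.54 ± 0.15, adjusted p = 0.0161), a call that was lost without shDBD replicate 1 (adjusted p = 0.241), shTA replicate 1 (0.0931) or shTA replicate 2 (0.0731) and with the mean of the 4 probe sets (0.12). Against the vector, shDBD differed by -0.37 ± 0.15 and did not pass (adjusted p = 0.0872), but it did with the arms fitted separately (0.0155), without shDBD replicate 2 (-0.57, 0.0278) and without ΔNp63α replicate 3 (0.0495). The difference ran from -0.57 to -0.17 with an array left out. Of the other 3 probe sets of NOTCH2, 212377_s_at rose with TAp63γ by 0.55 and was called, and 210756_s_at (0.39) and 202445_s_at (0.14) were not. NOTCH2 has near-identical partial copies in the genome (the NOTCH2NL genes), which these probe sets may not separate.

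NOTCH3 gave 2 different pictures. The probe set fixed by the rule, 203237_s_at, had group means between 7.03 and 7.36 over both arms and was called in 0 of 6 comparisons, its differences ranging from -0.10 to 0.13. The second probe set, 203238_s_at, whose mean over all arrays was lower (6.96 against 7.18), was looked at after these values were seen and is an added alternative. It read 6.17, 6.14 and 6.01 with the overexpression vector, 6.56, 6.34 and 6.32 with ΔNp63α and 8.30, 7.50 and 7.45 with TAp63γ, and 7.19 and 7.16 with the shRNA vector, 6.87 and 6.61 with shDBD and 7.95 and 7.82 with shTA. On this probe set no group overlapped another group of its arm.

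By the second probe set, NOTCH3 was 3.13-fold higher with TAp63γ than with the vector (1.65 ± 0.17, limma adjusted p = 1.03e-06 over all probe sets) and 1.34 ± 0.17 lower with ΔNp63α than with TAp63γ (-1.34, adjusted p = 1.45e-05). The rise with TAp63γ was 1.37 to 1.79 when each array was left out in turn. Between the hairpins it was lower with shDBD (-1.14 ± 0.21, adjusted p = 0.00112, up to 0.0216 with an array left out). Against the vector, shTA stood at 0.71 ± 0.21 (adjusted p = 0.11, from 0.00335 to 0.436 with an array left out) and shDBD at -0.44 ± 0.21 (adjusted p = 0.182), and ΔNp63α at 0.30 ± 0.17 (adjusted p = 0.23). With an array left out, the adjusted p ran from 0.0112 to 0.578 for shDBD and from 0.0217 to 0.468 for ΔNp63α. Both these differences and that of shTA were called in 1 such fit, the one without TAp63γ replicate 1. With the mean of both probe sets, NOTCH3 was called with TAp63γ (0.89, adjusted p = 1.13e-05), between the isoforms (-0.72, adjusted p = 1.19e-04) and between the hairpins (-0.59, adjusted p = 0.00693). Which probe set follows the NOTCH3 transcript was not tested.

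LFNG, the Fringe glycosyltransferase of the receptors, was not called in any of the 6 comparisons. Its single probe set lay from 5.55 to 6.12 over the 15 arrays, only 0.14 to 1.04 above the 20th percentile of each array. That percentile served as a floor or filter in alternative fits only, and the main fit left no gene out for a low signal. Its largest difference was -0.13 with TAp63γ (interval -0.32 to 0.05). A p that misses the threshold does not show that LFNG was the same in all groups.

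HES1, the repressor at the end of the route whose upstream sequence holds the pair of TGGGAA letters, was called against the vector in both arms, lower with shDBD and higher with each isoform. It read 9.43 and 9.55 with the shRNA vector, 8.81 and 8.71 with shDBD and 9.32 and 9.26 with shTA. The shDBD arrays were lowest and no pair of groups overlapped. HES1 fell by 0.73 ± 0.10 with shDBD (-0.73, 1.66-fold, adjusted p = 9.49e-05) and was lower than with shTA (-0.52 ± 0.10, adjusted p = 0.00194). The shTA arrays differed from the vector by -0.21 (interval -0.43 to 0.02, adjusted p = 0.429).

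In the overexpression arm HES1 read 9.72, 9.63 and 9.79 with the vector, 10.28, 10.04 and 10.17 with ΔNp63α and 10.22, 10.44 and 10.31 with TAp63γ. Both isoforms lay above the vector without overlap and overlapped each other. HES1 rose by 0.45 ± 0.085 with ΔNp63α (1.37-fold, adjusted p = 7.92e-04) and by 0.61 ± 0.085 with TAp63γ (1.52-fold, adjusted p = 2.30e-05). The isoforms differed by -0.16 (interval -0.34 to 0.02). Every one of the 4 calls held under all 23 alternatives, and the second probe set was called in the same 4 comparisons in the same directions (-0.90, -0.68, 0.35 and 0.41 for shDBD against vector and shTA, ΔNp63α and TAp63γ). The dimmest probe set, 203393_at, lay between 5.92 and 6.35 and was called in none of them.

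HEY1, a related repressor and direct target, fell with TAp63γ while HES1 rose. It read 7.36, 7.02 and 7.25 with the vector, 7.30, 7.25 and 7.25 with ΔNp63α and 6.50, 6.73 and 6.53 with TAp63γ. The TAp63γ arrays lay below all others of the arm. HEY1 fell by 0.63 ± 0.086 (-0.63, 1.54-fold, adjusted p = 2.07e-05) and was higher with ΔNp63α than with TAp63γ by 0.68 ± 0.086 (adjusted p = 1.45e-05). Its other probe set gave -0.49 and 0.55, both called. With ΔNp63α it differed by 0.05 (interval -0.13 to 0.24). In the knockdown arm it stood at 6.73 and 6.66 with the vector, 6.50 and 6.53 with shDBD and 6.47 and 6.49 with shTA. Both hairpins lay below the vector without overlap, at -0.18 and -0.21, and neither passed (adjusted p = 0.298 and 0.414).

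**Figure D3:**
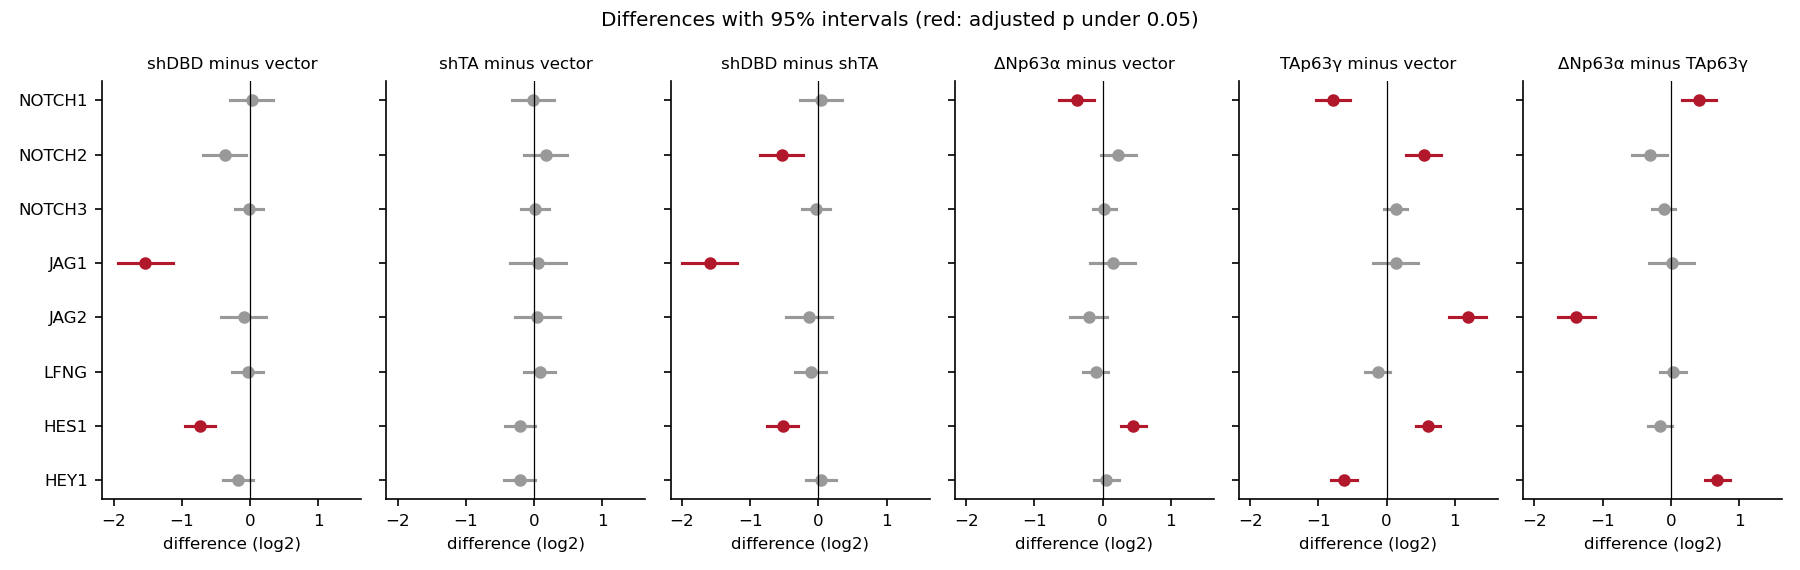
Log2 difference (horizontal axis) of the 8 measured Notch genes (vertical axis) in the 6 comparisons, with 95% intervals from limma; red marks an adjusted p under 0.05. HES1 is to the left with shDBD and to the right with both isoforms, JAG1 is off zero only in the 2 comparisons with shDBD, and NOTCH1 and NOTCH2 lie on opposite sides with TAp63γ.

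The rest of the pathway was followed through a list of 89 further genes by role, of which 72 were measured. With shDBD, 16 rose and 11 fell (median 0.02), with shTA 2 rose and 1 fell (median -0.02), with ΔNp63α 12 rose and 11 fell (median -0.02), and with TAp63γ 18 rose and 21 fell (median -0.04). Between the hairpins 18 were higher and 8 lower with shDBD, and between the isoforms 19 were higher and 18 lower with ΔNp63α. The shares of all genes called were 21.3% with shDBD, 2.29% with shTA, 28.9% with ΔNp63α, 43.4% with TAp63γ, 18.4% between the hairpins and 39.8% between the isoforms. The list and its roles were chosen with earlier results of these data known. Counts of the list or of a role are thus a description, and no enrichment is read from them beside these shares.

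Of 8 measured genes of receptor cleavage, 8 were called in the direct comparison of the isoforms, 3 higher and 5 lower with ΔNp63α, when 39.8% of all genes were called. With shDBD, 4 of 8 rose and 1 fell, when 11.1% of all genes rose and 10.2% fell. The γ-secretase subunits APH1A (0.67 ± 0.12), PSENEN (0.62 ± 0.15), APH1B (0.51 ± 0.098) and NCSTN (0.50 ± 0.12) were higher, and the convertase FURIN was lower (-0.41 ± 0.13). With TAp63γ, PSENEN (0.93 ± 0.12), APH1A (0.65 ± 0.097) and APH1B (0.43 ± 0.080) rose, and the receptor sheddase ADAM10 (-0.73 ± 0.16) and ADAM17 (-0.19 ± 0.073) fell, while NCSTN did not pass (0.08 ± 0.10, adjusted p = 0.579). With ΔNp63α the only call was the catalytic subunit PSEN2 (-0.62 ± 0.10). ADAM10 was 2.18-fold higher with ΔNp63α than with TAp63γ (1.12 ± 0.16, adjusted p = 4.06e-05) and PSENEN 2.01-fold lower (-1.01 ± 0.12). With shTA, 0 of the 8 were called, when 2.29% of all genes were.

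Of 6 enzymes that add or extend sugars, RFNG, a second Fringe (-0.57 ± 0.099), and POGLUT1, which adds glucose to the receptor (-0.47 ± 0.070), fell with ΔNp63α, and both fell with TAp63γ (-0.56 ± 0.099 and -0.42 ± 0.070) together with the fucosyltransferase FUT8 (-1.05 ± 0.090). That made 2 of 6 called with ΔNp63α and 3 of 6 with TAp63γ, where the shares of all genes were 28.9% and 43.4%. Another fucosyltransferase of the 6, POFUT1, was not called with ΔNp63α (-0.20 ± 0.087, adjusted p = 0.102) or TAp63γ (-0.14 ± 0.087, adjusted p = 0.22). POGLUT1 rose with shDBD (0.38 ± 0.086), 1 of the 6, when 11.1% of all genes rose. Of 5 further receptors and ligands, only the Delta-like protein gene DLK2 was called: it fell by 0.91 ± 0.11 with shDBD (-0.91, adjusted p = 1.26e-05) and by 0.24 ± 0.086 with TAp63γ (-0.24). That made 1 of 5 lower with each, when 10.2% of all genes were lower with shDBD and 22.8% with TAp63γ. Of 12 genes of endocytosis and ubiquitin control, the Deltex gene DTX2 rose with both isoforms (0.71 ± 0.11 and 0.79 ± 0.11), the ubiquitin ligase NEDD4 fell with TAp63γ (-0.72 ± 0.077), and FBXW7, which marks the intracellular receptor for degradation, rose with shDBD (0.65 ± 0.11). DTX4 fell with ΔNp63α (-0.35 ± 0.087) and rose with TAp63γ (0.56 ± 0.087), and EPS15 fell with TAp63γ (-0.49 ± 0.13). Of these 12 genes, 2 rose and 2 fell with TAp63γ, when 20.5% of all genes rose and 22.8% fell. With ΔNp63α 1 rose and 1 fell, when 12.3% of all genes rose and 16.6% fell. With shDBD 1 rose and 0 fell, when 11.1% of all genes rose and 10.2% fell.

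In the nuclear complex, 6 of 10 measured activators fell with TAp63γ and 0 rose, when 22.8% of all genes fell and 20.5% rose. They were SNW1 (-0.68 ± 0.089), the acetyltransferase CREBBP (-0.62 ± 0.16), the DNA-binding partner RBPJ (-0.45 ± 0.15), KAT2A (-0.39 ± 0.067), CDK8 (-0.37 ± 0.11) and CCNC (-0.37 ± 0.13). With ΔNp63α, 3 of the 10 fell, CREBBP (-0.57 ± 0.16), SNW1 (-0.32 ± 0.089) and KAT2A (-0.19 ± 0.067), when 16.6% of all genes fell. The coactivator MAML1 did not pass between the isoforms (-0.02 ± 0.077, adjusted p = 0.893). Among 11 repressors, 2 rose and 5 fell with TAp63γ. With shDBD, 3 of them rose and 3 fell, when 11.1% of all genes rose and 10.2% fell. The deacetylase HDAC2 (-0.88 ± 0.076) and SAP30 (-0.92 ± 0.13) fell with TAp63γ and less far with ΔNp63α (-0.40 ± 0.076 and -0.42 ± 0.13), and these differences between the isoforms were called (0.49 ± 0.076 and 0.50 ± 0.13). The Groucho-type corepressor TLE4 rose with ΔNp63α (1.07 ± 0.12) and with TAp63γ (0.60 ± 0.12), and the deacetylase HDAC1 rose with TAp63γ (0.71 ± 0.17). TLE4 read the same value, 7.65, on all 3 TAp63γ arrays. TLE3 (6.73) and the target gene ID3 (10.25) likewise did not vary over the 3 ΔNp63α arrays. Such ties add no spread to the pooled SE of these genes, and their origin was not tested. With shDBD the Groucho genes went both ways, TLE3 lower (-0.57 ± 0.11) and TLE1 (0.43 ± 0.11) and TLE2 (0.29 ± 0.090) higher, and the demethylase KDM5A rose by 0.74 ± 0.088.

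**Figure D4:**
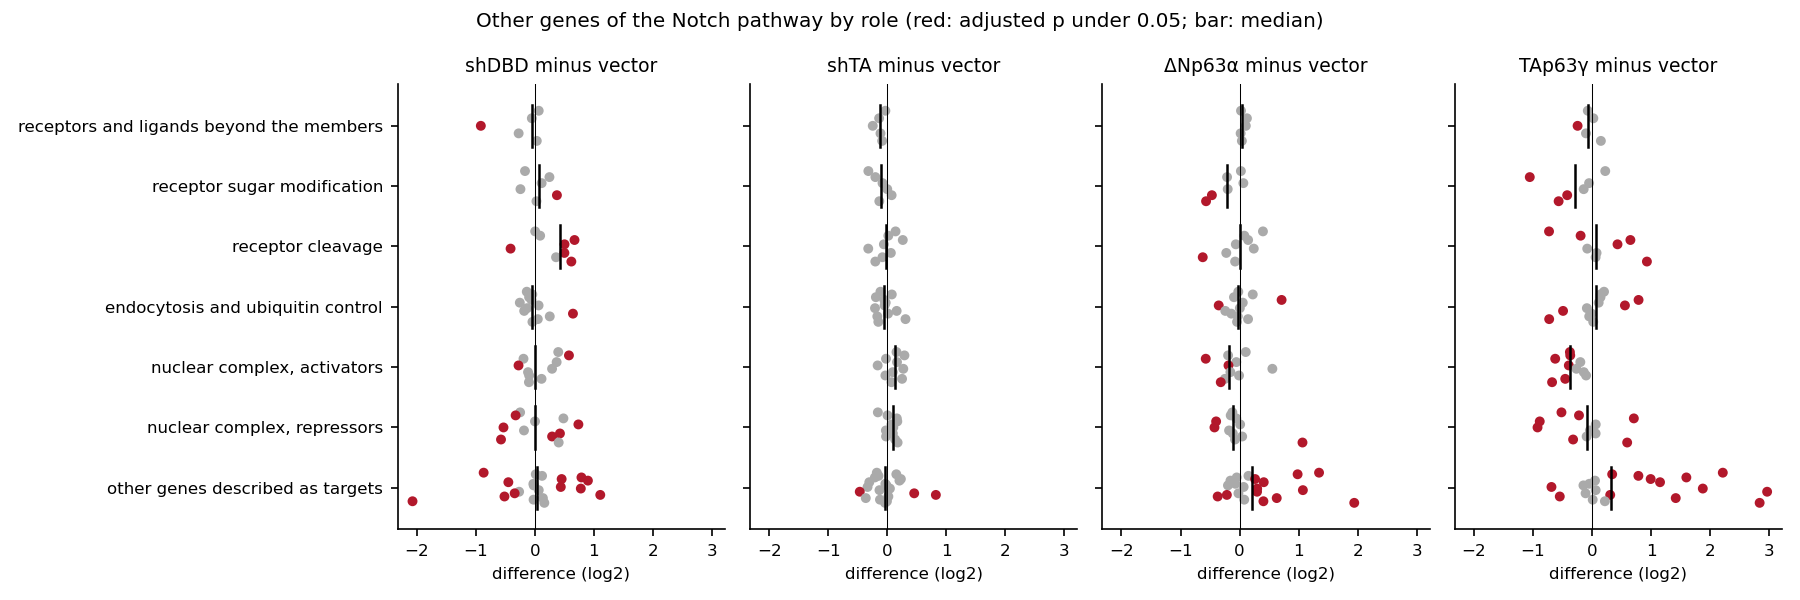
Log2 difference (horizontal axis) of the 72 measured further pathway genes, grouped by role (vertical axis), for the 4 treatments against their vectors; points are genes, red marks an adjusted p under 0.05 and bars are medians. Few genes move with shTA, and the widest spread is among genes described as targets with TAp63γ.

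Genes described as Notch targets, many of which answer to other signals too, spread furthest. With TAp63γ, 11 of 20 rose and 2 fell, when 20.5% of all genes rose and 22.8% fell. These 20 genes were also chosen with earlier results known, so the count is a description. Involucrin, a cornified envelope precursor (IVL, 2.97 ± 0.088, 7.82-fold), the transcription factor SOX9 (2.84 ± 0.11), the repressor BHLHE40 (2.22 ± 0.14), ID3 (1.88 ± 0.078), the cell-cycle inhibitor CDKN1A (1.60 ± 0.13) and NFKB2 (1.42 ± 0.12) had the largest rises, and HES2, a relative of HES1, rose by 1.15 ± 0.090. The 2 that fell were ID1 (-0.69 ± 0.078), a relative of ID3, and MYC (-0.55 ± 0.058). With ΔNp63α, 10 rose and 2 fell, when 12.3% of all genes rose and 16.6% fell. The largest rises were those of SOX9 (1.94 ± 0.11), BHLHE40 (1.35 ± 0.14) and the cytokine receptor IL7R (1.07 ± 0.080). IVL was higher with TAp63γ than with ΔNp63α by 6.37-fold (-2.67 ± 0.088). With shDBD, 6 rose and 5 fell, when 11.1% of all genes rose and 10.2% fell. The suprabasal keratin KRT10 (1.11 ± 0.082), the luminal transcription factor GATA3 (0.90 ± 0.092), ID3 (0.78 ± 0.096) and CDKN1A (0.79 ± 0.15) were higher. SNAI2, a transcription factor of basal cells (-2.07 ± 0.12, 4.20-fold), BHLHE40 (-0.87 ± 0.17) and MYC (-0.51 ± 0.072) were lower. The other suprabasal keratin of the list, KRT1 (-0.34 ± 0.11, adjusted p = 0.0391), and HES2 (-0.45 ± 0.11) were also lower with shDBD. With shTA, KRT10 (0.83 ± 0.082, adjusted p = 3.59e-05) and KRT1 (0.46 ± 0.11) rose and IVL fell (-0.46 ± 0.11), and these 3 were all of the shTA calls in the list of 72. The count fell to 1 without either shRNA vector array, either shTA array or overexpression vector replicate 3, and it was 7 with the arms fitted separately. KRT10 was thus called with each hairpin against the vector they share, reading 11.72 and 11.96 with that vector, 12.93 and 12.97 with shDBD and 12.67 and 12.66 with shTA. KRT1 and IVL were far dimmer. KRT1 read 6.46 and 6.24 with the shRNA vector, 6.14 and 5.88 with shDBD and 6.93 and 6.69 with shTA. IVL read 6.38 and 6.46 with that vector and 5.90 and 6.01 with shTA. The 20th percentile of the knockdown arrays lay between 5.38 and 5.42.

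The genes whose pattern lay nearest to the 3 members with the widest range of group means within an arm (JAG1, JAG2 and NOTCH1) were found by the root mean square difference, over the 15 arrays, of values from which the mean of the arm's vector was subtracted. For JAG1 they were RACGAP1 (0.23), ITGA6 (0.24) and KIF18B (0.26), where the median over all genes was 0.63. RACGAP1 and KIF18B act in cell division and ITGA6 is a laminin-binding integrin chain. RACGAP1 and KIF18B belong to the same process as the mitosis genes that fell with shDBD, and the part of that process in the fall of JAG1 was not tested. All 3 were lower with shDBD, by -1.28, -1.16 and -1.10, where JAG1 stood at -1.53. With ΔNp63α they stood at 0.42, 0.48 and 0.42, where JAG1 stood at 0.15. The genes named for each member were picked for likeness on these same arrays, so a shared change follows from the choice. For JAG2 they were WIPF2 (0.13), the cyclin CCND2 (0.14) and the kinase PIM2 (0.14; median over all genes 0.59), with 1.05, 1.13 and 1.11 for TAp63γ. For NOTCH1 they were BRCC3 (0.10), KLF13 (0.11) and SET (0.11; median over all genes 0.43), with -0.72, -0.80 and -0.71 for TAp63γ.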

How the data were processed

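Affymetrix arrays of 22277 probe sets on MCF-10A RNA were analysed in 15 samples, grouped by their titles. The deposited values are log2 values. Per the submitters' processing notes the authors used RMA; the sources used here name no version and do not say whether the arms were processed together. Array medians were 7.189 to 7.213 in the knockdown arm and 6.951 to 6.983 in the overexpression arm, with lower quartiles of 5.72 to 5.763 and 5.393 to 5.457, so treatments were compared within an arm. Arrays have no read depth, and their number limits the precision.

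By the platform annotation, 19064 probe sets had 1 symbol, 1043 several, 2108 were not listed and 62 were controls; each gene took its single-symbol probe set with the highest mean. limma 3.58.1 in R 4.3.3 fitted group means over all 15 arrays (9 residual and 5.87 prior degrees of freedom, variance trend on the mean, two-sided, Benjamini-Hochberg adjustment, threshold 0.05). The fit was tested on simulated data. Among 170 called values of members and list genes, 81 belonged to genes with several probe sets, and in 0 of those was another probe set called in the other direction. Named pathway genes were taken from up to 6 called genes in each direction per comparison, those with the largest change. Up to 3 uncalled genes with the highest mean were added to these. The others named were chosen after their values were seen, and they do not complete the count of every role. The members and lists were chosen with earlier results of these data known. Alternatives were other probe set rules, separate arms, no trend, a floor or filter at the 20th percentile, cyclic loess, quantile normalization, a replicate block and each array left out. Upstream sequences came from RefSeq (GRCh38.p14).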

Additional observations from a re-analysis of the deposited data

How the results depend on the processing

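The calls of JAG1, JAG2, HES1 and HEY1 kept their direction and side of the threshold under all 23 alternatives listed in the processing in all 6 comparisons, and 0 member values changed sign with a call. With ΔNp63α the count of called members was 2, and it was 1 with the arms fitted separately, with cyclic loess, with quantile normalization and with the replicate block, and 1 to 2 with each array left out, always through NOTCH1. Between the isoforms it was 3, and 5 with the mean of all probe sets of a gene, where NOTCH3 (-0.72) and NOTCH2 (-0.26) were added; it was 2 to 4 with an array left out. By that mean NOTCH3 was also called with TAp63γ (0.89) and between the hairpins (-0.59). The count in the wider list with shTA was 3, and 7 with separate arms and 1 to 4 with an array left out; between the hairpins it was 26, and 15 to 26 with an array left out. Over all genes the shTA count of 274 was 1064 with separate arms, 150 with the replicate block and 87 to 472 with an array left out; the shDBD count of 2543 was 1650 without shRNA vector replicate 1; and between the hairpins 2197 became 3359 with separate arms, 1348 without shDBD replicate 1 and 1463 without shTA replicate 2. Fitting the arms separately leaves each difference unchanged and alters only its estimated spread and degrees of freedom. The cause of the other shifts was not tested.

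The replicate numbers were not taken to pair the arrays: same-numbered arrays' deviations from their group means correlated across genes at 0.0014 to 0.069 in the knockdown arm and -0.63 to 0.48 in the overexpression arm, and 4 of 18 best matches in the latter were of the same number. A second probe set as the measure changed the call of NOTCH2 between the hairpins (-0.38, adjusted p = 0.124) and those of NOTCH3 given in the results, and was chosen after seeing the data. Groups of 2 arrays limit the precision, and a fit without 1 of them assumes that the lone array varies like the other groups.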

Other observations

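Levels of both vector controls belong in no comparison within an arm and are given as values. Of the 8 measured Notch genes, JAG1 had the largest gap between the overexpression vector and the shRNA vector, 3.27, and the others had 0.52 (HEY1), -0.49 (NOTCH2), -0.36 (JAG2), 0.34 (LFNG), -0.32 (NOTCH3), 0.22 (HES1) and 0.16 (NOTCH1), where the median size over all genes was 0.55. By its other probe sets JAG1 stood at 7.26 and 9.03 (209098_s_at), 8.40 and 11.9 (216268_s_at) and 6.27 and 6.53 (209097_s_at) with the shRNA and overexpression vector. SOX9, chosen here after its values were seen, read 9.31 and 9.45 with the shRNA vector and 5.62, 6.08 and 5.92 with the overexpression vector. Its mean was 7.82 with ΔNp63α and 8.71 with TAp63γ.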
